A study of Mus musculus with 2 samples.

Results

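The cytosolic ribosome is built from a large and a small subunit, whose proteins are named with the prefixes Rpl and Rps. The genes examined here are the mouse protein-coding genes of the GENCODE M21 annotation whose symbol begins with Rpl or Rps followed by a digit, p or a, with the Rps6k kinases and symbols containing "-ps" left out. The rule took 86 of 21951 protein-coding genes, 52 named for the large subunit and 34 for the small one. It was a rule on names and used no measurement, but these members and the gene lists below were chosen with earlier results of these data known. A list of 77 recognised subunit genes lay inside it, and the other 9 were paralogues or genes named after a ribosomal protein, such as Rps19bp1, which encodes a binding partner of Rps19 and not a subunit.

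GABPα was immunoprecipitated from CD4+ T cells that had been purified on magnetic beads from mice labelled wild-type of the C57BL/6 strain, with 1 ChIP library and 1 library of input DNA made without antibody. The study uses the name wild-type for littermates with floxed Gabpa alleles and no Cre, and whether these cells came from such mice is not given in the sources used here. The age and number of mice behind these libraries are not given there either. The list analysed gave 6782 GABPα-binding peaks as positions only, with a median width of 157 bp and extremes of 104 and 5151 bp, so the height of a peak and the depth of the libraries are unknown. With 1 ChIP library there was no replicate, the identity of the cells could not be checked from positions, and the intervals below cover counting error over genes alone.

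GABP, also called nuclear respiratory factor 2, is a complex of the Ets-family protein GABPα, which reads the DNA, with a partner, GABPβ, that activates transcription. It recognises a GGAA core that is usually preceded by CC and followed by G, often close to the start sites of housekeeping genes. Ribosomal protein genes are transcribed by RNA polymerase II at high and matched levels in growing cells, and their messages begin with a short pyrimidine stretch (the 5′ TOP) through which mTOR signalling controls their translation.

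Sites with the letters CCGGAAG are shown first because these 7 bases, the GABP consensus searched throughout, were found in the peaks of members from both subunits and from the stalk. Each line gives 27 bases of the mm10 (GRCm38.p6) reference, 5′ to 3′ on the strand that carries the motif, with the motif in capitals.
Rps21, chr2:180257343-180257369, plus strand: gtaccctgacCCGGAAGcacttaccga
Rps6, chr4:86857442-86857468, minus strand: taatctacgcCCGGAAGtaacgcccct
Rps18, chr17:33955724-33955750, minus strand: gaagcaatttCCGGAAGtggacctccg
Rpsa, chr9:120127568-120127594, minus strand: agaccccaggCCGGAAGtagctggggc
Rplp1, chr9:61914663-61914689, minus strand: gccaatcgcaCCGGAAGtcgaacgcgc
Rpl37, chr15:5116580-5116606, plus strand: ccaagacccgCCGGAAGtagtttcctg
Rpl32, chr6:115808804-115808830, minus strand: ggacccagagCCGGAAGtgcttccctt
Rpl41, chr10:128549208-128549234, minus strand: agtaaggcagCCGGAAGtcgctgtctc
Rpl8, chr15:76904041-76904067, plus strand: tggccccgccCCGGAAGataaggctgc
Rpl26, chr11:68901560-68901586, plus strand: acttacagaaCCGGAAGtcgcgtgtag

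The base after the 7 letters was T in each of these sites except Rps21, with C, and Rpl8, with A. Sites with T complete the extended form CCGGAAGT. In Rps18 the motif lay inside the annotated gene, 264 bp past the gene start, whereas in Rps21 and Rpl26 it lay 21 and 10 bp before it.

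Other bound genes carried the 6-base core CGGAAG without the C before it, and 5 of these are shown, including Rps19, whose peak was the widest of all members. Capitals mark the 6 bases.
Rps19, chr7:24884311-24884336, minus strand: cttttgagggCGGAAGtgcgggcgaa
Rps3, chr7:99483656-99483681, plus strand: ggctcgcgggCGGAAGtaggtatata
Rpl37a, chr1:72711234-72711259, minus strand: gaccggcgagCGGAAGtgacgcgacc
Rpl36a, chrX:134585653-134585678, minus strand: agagccgcaaCGGAAGtttataggcg
Rpl24, chr16:55966283-55966308, plus strand: actgggcgctCGGAAGtgacatcatc

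Some unbound genes had such letters near their start as well, and 4 of them are shown for comparison, with CCGGAAG capitalised in Rpl19 and CGGAAG in the others.
Rpl19, chr11:98026661-98026687, minus strand: ctctgggtagCCGGAAGtcacgctaag
Rps12, chr10:23787304-23787329, minus strand: ctcctaaaggCGGAAGtggaaactcc
Rpl12, chr2:32961532-32961557, minus strand: gctcgggattCGGAAGgggtaaatgt
Rps28, chr17:33824610-33824635, plus strand: tccttcggagCGGAAGgaatatggcg

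Longer stretches show how the motifs were arranged before the gene start. Each line below gives the 150 bases that end just before the annotated gene start, 5′ to 3′ on the strand of the gene, with CCGGAAG and CGGAAG in capitals on the strand of the gene and as CTTCCGG and CTTCCG where they lie on the opposite strand. Rps21, Rpsa and Rplp1 were bound, and Rpl19 and Rplp0 were not.
Rps21, chr2:180257227-180257376, plus strand: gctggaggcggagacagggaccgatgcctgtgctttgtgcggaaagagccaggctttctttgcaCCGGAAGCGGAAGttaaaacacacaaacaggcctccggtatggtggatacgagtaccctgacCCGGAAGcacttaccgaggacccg
Rpsa, chr9:120127539-120127688, plus strand: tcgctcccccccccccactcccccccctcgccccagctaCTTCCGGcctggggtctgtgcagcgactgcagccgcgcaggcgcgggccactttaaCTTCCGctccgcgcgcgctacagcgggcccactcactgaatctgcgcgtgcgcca
Rplp1, chr9:61914543-61914692, minus strand: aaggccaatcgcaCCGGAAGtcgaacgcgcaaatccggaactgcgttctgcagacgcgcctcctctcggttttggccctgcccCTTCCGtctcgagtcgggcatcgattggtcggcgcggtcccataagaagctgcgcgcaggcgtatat
Rpl19, chr11:98026560-98026709, plus strand: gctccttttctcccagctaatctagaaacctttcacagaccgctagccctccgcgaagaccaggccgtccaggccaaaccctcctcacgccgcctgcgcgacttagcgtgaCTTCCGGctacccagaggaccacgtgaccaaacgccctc
Rplp0, chr5:115559317-115559466, plus strand: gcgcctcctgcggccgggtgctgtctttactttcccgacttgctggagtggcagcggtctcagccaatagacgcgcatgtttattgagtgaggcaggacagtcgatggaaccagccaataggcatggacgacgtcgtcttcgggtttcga

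Rps21, a small-subunit protein gene, had 2 copies of CCGGAAG in this stretch, and 1 of them ran straight into a further CGGAAG. Rpsa, which encodes the small-subunit protein also known as the laminin receptor, and Rplp1, an acidic stalk protein gene, had 1 copy of CCGGAAG each and a further CGGAAG. Rpl19 had 1 copy 36 bp before its start and no peak, and Rplp0 had neither form.

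To ask how much of the gene family carried GABPα, a gene was called bound when a peak lay within 1000 bp of any of its annotated transcript starts. Of the 86 genes, 61 were bound, a share of 70.9% (Wilson 95% interval 60.6 to 79.5), against 17.7% of all 21951 protein-coding genes. The share was 53.5 percentage points above that of the other protein-coding genes (Newcombe 95% interval 43.1 to 62). A transcript start lay inside a peak for 60 of the 86 genes (69.8%), against 13.9% of all protein-coding genes. Among the 77 recognised subunit genes 57 were bound (74.0%, 63.3 to 82.5).

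Among the bound large-subunit genes were Rpl10a, Rpl11, Rpl13, Rpl13a, Rpl15, Rpl17, Rpl18, Rpl21, Rpl22l1, Rpl23, Rpl24, Rpl26, Rpl27, Rpl27a, Rpl28, Rpl29, Rpl30, Rpl31, Rpl32, Rpl34, Rpl35, Rpl36, Rpl36a, Rpl36al, Rpl37, Rpl37a, Rpl38, Rpl39, Rpl4, Rpl41, Rpl6, Rpl8, Rplp1 and Rplp2. Among the bound small-subunit genes were Rps10, Rps13, Rps14, Rps15, Rps16, Rps18, Rps19, Rps19bp1, Rps2, Rps20, Rps21, Rps24, Rps25, Rps26, Rps27, Rps27l, Rps3, Rps3a1, Rps4x, Rps6, Rps7 and Rpsa. No peak was found for the large-subunit genes Rpl10, Rpl10l, Rpl12, Rpl14, Rpl19, Rpl22, Rpl23a, Rpl3, Rpl35a, Rpl39l, Rpl3l, Rpl5, Rpl7, Rpl7a, Rpl7l1, Rpl9 and Rplp0, or for the small-subunit genes Rps12, Rps15a, Rps23, Rps27a, Rps27rt, Rps28, Rps29 and Rps9.

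The bound shares of the large and small subunit were not told apart by counting error. In the large subunit 35 of 52 genes had a peak (67.3%, 53.8 to 78.5), and in the small subunit 26 of 34 (76.5%, 60.0 to 87.6). The small subunit was 9.16 points higher, with an interval from -10.7 to 26.7 that spans zero. Over the recognised subunit genes alone the shares were 71.7% of 46 and 77.4% of 31 genes, a difference of 5.68 points (-14.7 to 23.8). The mitochondrial ribosome, which makes the respiratory chain subunits encoded in mitochondria, showed 62.1% of its small-subunit and 61.2% of its large-subunit genes bound.

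Set beside other genes of protein synthesis, the cytosolic family had the higher bound share, with intervals of the differences that spanned zero. Mitochondrial ribosomal protein genes were bound in 48 of 78 cases (61.5%, 50.4 to 71.6), which put the cytosolic genes 9.39 points higher with an interval from -4.99 to 23.4. Translation initiation factor genes were bound in 29 of 51 cases (56.9%, 43.3 to 69.5), 14.1 points lower than the cytosolic family (-2.25 to 30.1). A list of 30 ribosome assembly factors had 20 bound genes (66.7%, 48.8 to 80.8), among them Fbl, the methyltransferase of box C/D snoRNPs, Gar1 of the box H/ACA snoRNPs, and Eif6, which keeps the large subunit from joining early. The cytosolic family was 4.26 points higher than this list (-13.2 to 24.1). Nop56, Ncl, Dkc1, Polr1a, Polr1b, Ubtf, Pes1, Nob1, Sbds and Nle1 of that list had no peak. All of these shares were above the 17.7% of protein-coding genes as a whole.

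With the stricter rule of a transcript start inside a peak, chosen for these differences after seeing the data, each difference stayed within its earlier interval. The cytosolic genes at 69.8% (59.4 to 78.5) were then 20.7 points above the initiation factor genes at 49.0% (35.9 to 62.3), with an interval from 3.88 to 36.5 that no longer reached zero. They were 14.6 points above the mitochondrial ribosomal genes at 55.1% (44.1 to 65.7), with an interval from -0.152 to 28.7, and 3.10 points above the assembly factors at 66.7% (-14.4 to 23.0).

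**Figure D1:**
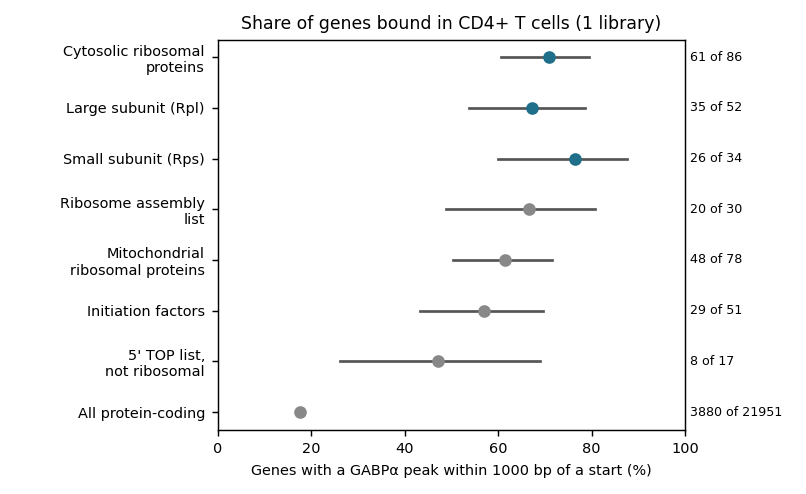
Share of genes with a GABPα peak within 1000 bp of a transcript start (x axis, %) in 8 gene groups (y axis). Points are the shares in 1 library, lines are Wilson 95% intervals and the numbers of bound and tested genes stand at the right. The 3 rows of cytosolic ribosomal protein genes lie at 67.3% to 76.5%, and all protein-coding genes at 17.7%.

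The family was split by role with lists of genes. The lateral stalk recruits the translation factors with GTPase activity, and it is made of Rplp0, which anchors it, and dimers of Rplp1 and Rplp2. Rplp1 had a peak of 288 bp at chr9:61914507-61914794, and Rplp2 had a peak of 209 bp over its gene start and a peak of 220 bp just downstream, over a further transcript start. Rplp0 had no peak, and the nearest lay 5523 bp from one of its starts. Rpl5 and Rpl11 join the 5S rRNA in a particle that also holds back Mdm2 when ribosome assembly is disturbed. Rpl11 had a peak of 252 bp at chr4:136053251-136053502, and Rpl5 had none within 94432 bp.

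Mutations of many ribosomal protein genes cause Diamond-Blackfan anaemia, an inherited failure of red cell production. Of 16 such genes 12 were bound (75%, 50.5 to 89.8). This was near the 70.9% of all 86 members, whereas 17.7% of all protein-coding genes were bound. The 12 included Rps19, Rps24, Rps7, Rps10, Rps26, Rps27, Rpl11, Rpl15, Rpl26, Rpl27 and Rpl31. Rps28, Rps29, Rpl5 and Rpl35a were not bound. Rps19, the gene most often mutated in that disease, had the widest peak of the family.

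Subunit proteins with symbols outside the rule were read in the same way. Rack1, a scaffold on the small subunit, had a peak of 216 bp. Fau, which encodes Rps30 fused to a ubiquitin-like protein, had none, and neither did Rps27a, which is made as a fusion to ubiquitin. Against 17.7% of all protein-coding genes, 8 of 17 genes with 5′ TOP messages that are not ribosomal proteins were bound (47.1%, 26.2 to 69.0). These were the elongation factor genes Eef1a1, Eef1b2 and Eef1g, the initiation factor gene Eif3h, the poly(A)-binding protein gene Pabpc1, Tpt1, and the nascent chain complex genes Naca and Btf3, with Eef1b2 at 455 bp the widest.

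The 9 members outside the list of recognised subunit genes held 4 bound genes (44.4%, 18.9 to 73.3), against 17.7% of all protein-coding genes. The 4 were Rpl22l1, Rpl36al, Rps19bp1 and Rps27l. Rpl10l, Rpl39l, Rpl3l, Rpl7l1 and Rps27rt had no peak. Rpl10l and Rpl39l are paralogues known from testis and Rpl3l from muscle, and their parent genes Rpl10 and Rpl3 were unbound too, whereas Rpl39 had a peak of 135 bp.

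Introns of ribosomal protein genes often host snoRNAs, which guide the modification of rRNA. Of 30 members with an annotated snoRNA inside them 23 were bound (76.7%, 59.1 to 88.2), and of the 56 without one 38 were bound (67.9%, 54.8 to 78.6). Both shares were near the 70.9% of all 86 members, whereas 17.7% of all protein-coding genes were bound. The difference of 8.81 points had an interval from -11.8 to 26.2, which spans zero.

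The distance rule left no member near its limit. Among bound members the most distant peak was that of Rps2, which encodes a protein at the mRNA entry channel, and it ended 15 bp from the nearest start. Among unbound members the nearest peak was that beside Rpl7a, at 3583 bp, followed by Rpl12 at 4554 bp, whose product lies at the base of the stalk, and Rplp0 at 5523 bp. The farthest was at Rpl7, 552170 bp away, then Rps12 at 256399 bp and Rps27rt at 251462 bp. The median over the 25 unbound genes was 78644 bp, 5 had a peak within 10 kb and 0 had one within 2 kb. Some of these nearest peaks belonged to other members. The peak nearest to Rpl3l was that of Rps2, 7772 bp away, the peak nearest to Rps29 was that of Rpl36al, 24775 bp away, and the peak nearest to Rpl19 was that of Rpl23, 244181 bp away.

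**Figure D2:**
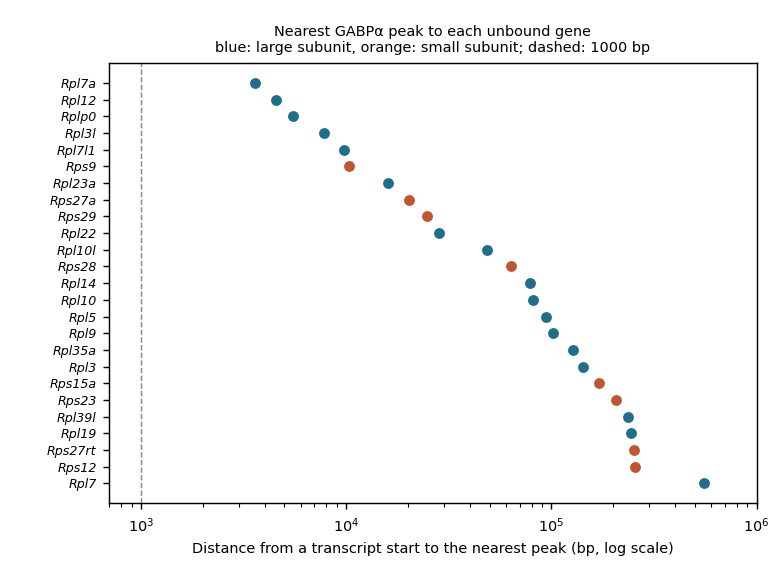
Distance from the nearest transcript start of each of the 25 unbound genes (y axis) to the nearest GABPα peak (x axis, bp, log scale). Blue points are large-subunit and orange points small-subunit genes, and the dashed line marks the limit of 1000 bp. The distances run from 3583 bp at Rpl7a to 552170 bp at Rpl7, all beyond the limit.

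Peak width was the only size the list gave, and where a gene had several peaks the widest was used. Of the 61 bound members 56 had 1 peak, 3 had 2 peaks (Rpl18 and Rplp2 among them) and 2 had 3 peaks (Rps18 and Rps25). The median width was 235 bp, between a smallest of 104 and a largest of 492 bp (quartiles 191 and 291, 95% interval of the median 213 to 270). The widest peaks of the 3819 other bound protein-coding genes had a median of 218 bp (interval 215 to 222), so the medians were not told apart. Medians were 224 bp in the large subunit (193 to 277) and 252 bp in the small subunit (213 to 290), and 246 bp in the mitochondrial ribosomal genes.

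The widest peak of the family, 492 bp, lay over the start of Rps19 at chr7:24884057-24884548 and was wider than 99% of all peaks in the list. Rps14, a small-subunit gene on chromosome 18 whose loss underlies the anaemia of the 5q- syndrome, followed with 486 bp. Rpl37 had 465 bp at chr15:5116298-5116762, Rpl27a had 381 bp at chr7:109518872-109519252, and Rps18 had 380 bp at chr17:33955562-33955941. These 5 peaks stood at or above the 96.8th percentile of width. Rpl27 had 377 bp at chr11:101442143-101442519 and Rpl28 had 358 bp at chr7:4792761-4793118. Rps3, which encodes a protein of the mRNA entry channel that also acts in DNA repair, had 349 bp at chr7:99483566-99483914. Rpl35, whose product sits beside the exit of the peptide tunnel, had 323 bp at chr2:39005027-39005349. Rpl34 and Rpl41 tied at 309 bp. Rpsa had 301 bp at chr9:120127542-120127842.

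At the other end, the peak of Rpl17 was 104 bp wide, the smallest width in the whole list, and only 62.3% of its 36-base sequences occur a single time in the genome. Rpl21 had 111 bp and Rpl32 had 120 bp, and every 36-base sequence of both peaks was unique.

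**Figure D3:**
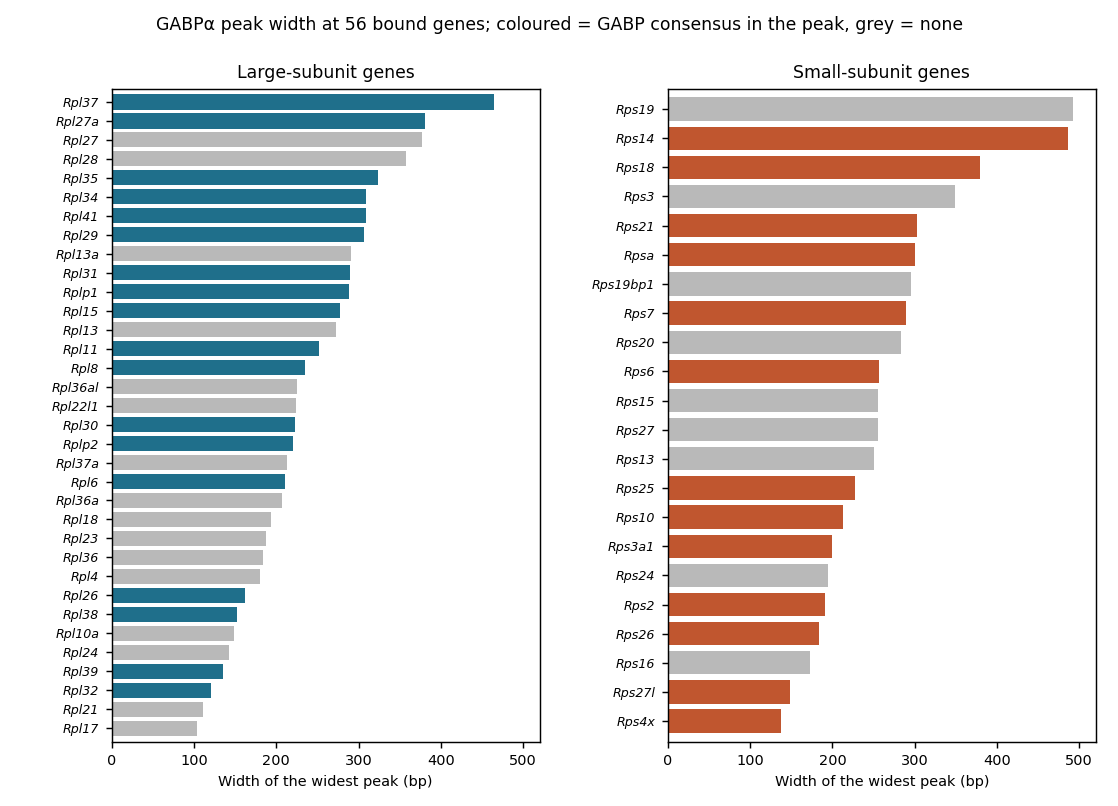
Width in bp (x axis) of the widest GABPα peak of 56 of the bound genes (y axis), large-subunit genes at the left and small-subunit genes at the right. Coloured bars are peaks with CCGGAAG and grey bars peaks without it. Rps19 at 492 bp and Rpl17 at 104 bp mark the ends of the range, and coloured and grey bars both occur along it.

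Peaks sat at transcript starts. From the annotated transcript start nearest to it, the midpoint of the widest peak was a median of 18.0 bp upstream (-18.0 bp, quartiles -49.5 and 0, range -115 to 49.0 bp), and 58 of 61 midpoints were within 100 bp. Other bound genes had a median of -22.0 bp (interval -24.0 to -20.0, against -33.5 to -7.00 in the members). Measured from the start of the gene as annotated, which is the most upstream of its transcripts, the median was 10 bp (quartiles -22.0 and 104). Of the 61 midpoints 43 were within 100 bp of that start, and 46 of the 61 peaks covered it.

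The members whose peaks lay far from the gene start had a transcript start further in. The midpoint was 27432 bp past the gene start in Rps14, 2596 bp in Rpl18, 1946 bp in Rpl17, 1837 bp in Rps2 and 1406 bp in Rps10. In Rps14, Rpl18, Rpl17 and Rps10 the peak covered another annotated start. In Rps2 alone no peak covered any start, and its 191-bp peak at chr17:24719858-24720048 lay with its midpoint at -110 bp from the nearest one.

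**Figure D4:**
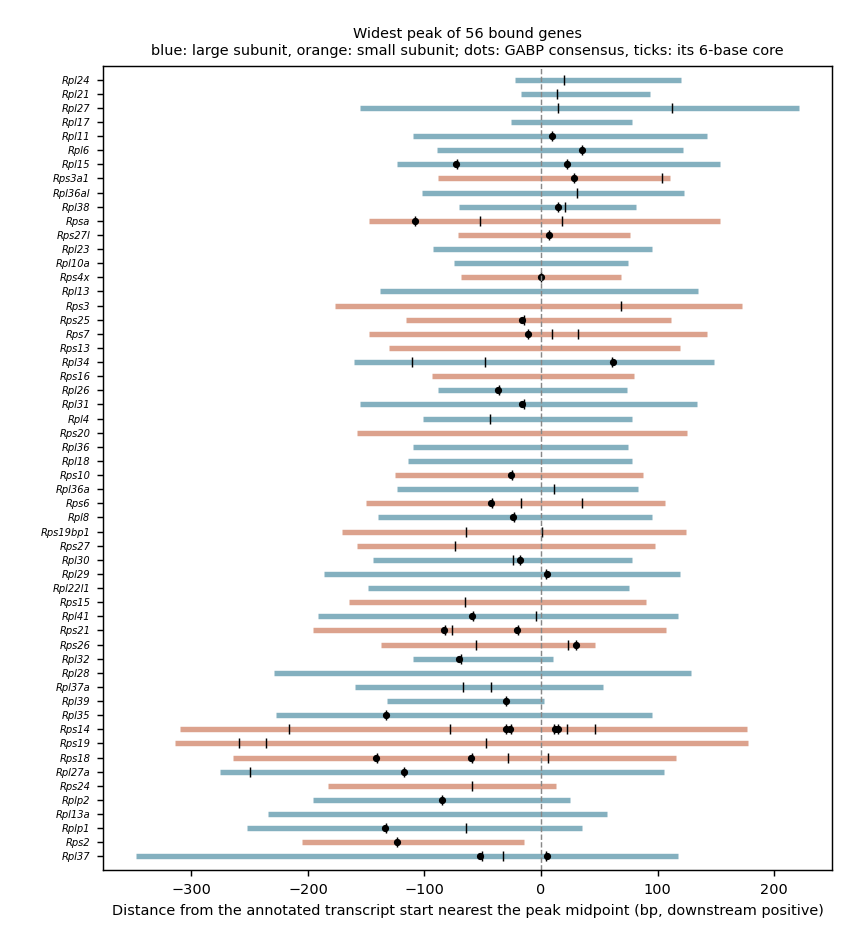
Extent of the widest GABPα peak of 56 of the bound genes (y axis) around the annotated transcript start nearest to its midpoint (x axis, bp, downstream positive). Blue bars are large-subunit and orange bars small-subunit genes, dots mark CCGGAAG and ticks mark CGGAAG. The bars straddle the start in every gene drawn except Rps2, whose peak ends 15 bp before it.

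For 10 bound members the peak also lay within 1000 bp of a start of another protein-coding gene, so the binding cannot be assigned to 1 of them. One peak covered starts of both genes at Rpl15 and Nkiras1, at Rpl35 and Arpc5l, at Rpl36al and Mgat2, at Rps24 and Polr3a, which encodes the largest subunit of RNA polymerase III, and at Rps27 and Rab13. The peak of Rps10 also covered a start of the read-through gene RPS10-NUDT3. At Rps25 and Trappc4 each of 3 peaks covered a Trappc4 start, at Rpl18 the wider of 2 peaks covered a Sphk2 start, and at Rps18 the widest of 3 peaks covered a start of Vps52 and the most distant one a start of B3galt4. The peak of Rpl4, which lines the peptide tunnel, was 170 bp from Zwilch. Counting only peaks near no other protein-coding gene, 51 members were bound, against 11.8% of all protein-coding genes.

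The share of peaks with the GABP consensus was not told apart from that of other bound genes. CCGGAAG on either strand was in the widest peak of 34 of the 61 bound members (55.7%, 43.3 to 67.5), against 59.3% of all bound protein-coding genes, and the members differed from the others by -3.62 points (-16.2 to 8.24). The core CGGAAG, which is contained in CCGGAAG, was in 49 peaks (80.3%, 68.7 to 88.4), against 79.0%. GGAA alone was in all 61 peaks, and CCGGAAGT was in 16 (26.2%). CCGGAAG was in 18 of 35 large-subunit peaks and 16 of 26 small-subunit peaks, a difference of 10.1 points (-14.5 to 32.7). It was in 9 of 19 peaks under 200 bp (47.4%) and 25 of 42 wider ones (59.5%). At other bound genes these shares were 44.7% and 69.2%.

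Members differed in how many copies they held. Of the 61 peaks 27 had no CCGGAAG, 29 had 1 copy and 4 had 2 copies (Rpl15, Rpl37, Rps18 and Rps21). Rps14 had 4 copies of CCGGAAG and 8 of CGGAAG, and the 4 copies formed 2 pairs in which the motifs on opposite strands overlap. Rps19 and Rps3, among the widest peaks, had CGGAAG only, 3 copies in Rps19 and 1 in Rps3. The 15 members with CGGAAG but not CCGGAAG included Rpl21, Rpl24, Rpl27, Rpl36a, Rpl36al, Rpl37a, Rpl4, Rps15, Rps19, Rps19bp1, Rps24, Rps27 and Rps3. The 12 with neither were Rpl10a, Rpl13, Rpl13a, Rpl17, Rpl18, Rpl22l1, Rpl23, Rpl28, Rpl36, Rps13, Rps16 and Rps20.

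The copies lay near the middle of the peaks. The CCGGAAG nearest to the midpoint was a median of 18.0 bp from it, and in 29 of 34 peaks it was within 50 bp, beside a median of 17.5 bp at other bound genes. Of the 41 copies 28 were on the strand of the gene and 13 on the other, a share of 68.3% against 51.2% of the 3005 copies at other bound genes. For CGGAAG the share was 52.3% of 86 copies against 52.1%. The base after CCGGAAG was T in 41.5%, A in 24.4% and C in 22.0% of the members' copies, against 46.5%, 11.5% and 30.1% elsewhere. These copies share peaks and in part overlap, and no test was made on them.

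Motifs of other promoter factors were searched in the same peaks on both strands. TATAA, the letters of a TATA box, was in 12 of 61 peaks (19.7%, 11.6 to 31.3), against 4.46% of all bound protein-coding genes and 2.08% of mitochondrial ribosomal genes. Members exceeded the other bound genes by 15.5 points (7.38 to 27.1). The 12 genes included Rpl22l1, Rpl24, Rpl36a, Rpl6, Rps14, Rps18, Rps2, Rps20, Rps26 and Rps27. In Rps27 the letters lay 23 bp upstream of the gene start on its own strand, in Rps26 26 bp upstream on the other strand, and in Rps20, Rpl36a and Rpl22l1 downstream of the start. The GC content of the members' peaks had a median of 61.9% (60.2 to 63.3), below the 64.4% of other bound genes (64.1 to 64.6), and the part of GC content in the TATAA share was not tested.

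GGGCGG, the GC box bound by Sp1, was in 33 peaks (54.1%, 41.7 to 66.0), against 61.9%, and members differed from other bound genes by -7.91 points (-20.4 to 4.08). AAGATGGC, the core of the YY1 element, was in 6 peaks (9.84%), against 6.31%, a difference of 3.58 points from other bound genes (-1.73 to 13.6). They included Rps27, Rpl13a, Rps3, Rpl41 and Rpl30, and in Rpl13a, Rps3, Rpl41 and Rpl30 the motif lay within 19 bp after the nearest transcript start.

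To compare bound with unbound members, a window of 150 bp to either side of the annotated gene start was read for every gene, whether or not a peak lay in it. Bound was called at any transcript start, so the window can miss the start that has the peak. The widest peak covered the gene start in 46 of the 61 bound genes. Further starts of the unbound members were not read either. CCGGAAG was in 27 of the 61 bound windows (44.3%, 32.5 to 56.7) and in 2 of the 25 unbound ones (8.0%, 2.22 to 25), Rpl19 and Rpl39l, against 11.5% of the windows of 21938 protein-coding genes. The bound members were 36.3 points higher than the unbound (15.6 to 50). CGGAAG was in 73.8% of bound and 24.0% of unbound windows, against 21.1%, a difference of 49.8 points (26.8 to 65.4). The unbound genes with CGGAAG were Rpl12, Rpl19, Rpl39l, Rps12, Rps15a and Rps28. GGAA was in every window of both groups, against 95.1% of the windows of all protein-coding genes.

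GGGCGG was in 60.7% of bound and 36% of unbound windows, against 45.5%, and the difference of 24.7 points had an interval of 1.49 to 44.0. AAGATGGC was in 9.84% of bound and 16.0% of unbound windows, against 3.52%, and TATAA in 23.0% and 32%, against 19.3%. The intervals of these differences spanned zero, from -25.5 to 7.70 and from -30.5 to 9.98 points. Pyrimidine letters were searched on the strand of the gene within 20 bp of the start, where the 5′ TOP would lie. CTTTCC was in 6.56% of bound and 8.0% of unbound windows, against 1.84%. CTTCC was in 23.0% and 8.0%, against 9.72%, and these letters overlap the reverse complement of the GABP motif.

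**Figure D5:**
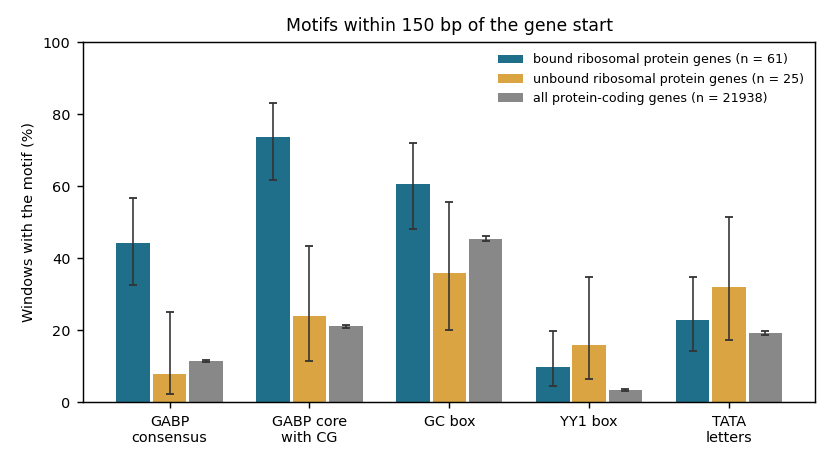
Share of windows (y axis, %) within 150 bp of the gene start that hold CCGGAAG (GABP consensus), CGGAAG (its core), GGGCGG (GC box), AAGATGGC (YY1 box) or TATAA, from left to right. Bars are 61 bound and 25 unbound ribosomal protein genes and 21938 protein-coding genes, with Wilson 95% intervals as error lines. CCGGAAG and CGGAAG stood at 44.3% and 73.8% in bound genes and at 8.0% and 24.0% in unbound ones.

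In other properties of the windows the intervals of bound and unbound members overlapped. Their median GC content was 59.8% (58.8 to 61.5) and 57.1% (52.8 to 61.5), against 57.8% over all protein-coding genes. The ratio of observed to expected CpG was 0.889 and 0.837, both above the 0.589 of all protein-coding genes. Among windows with at least 50% GC 56 of 77 members were bound (72.7%, 61.9 to 81.4), against 22.3% of all protein-coding genes. Members had a median of 6 annotated transcript starts, also in each of the groups, against 3 over all protein-coding genes, so that more starts per gene were open to a peak. With the gene start alone, 57 members were bound, against 16.4% of all protein-coding genes.

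Ribosomal protein genes have many processed pseudogenes, so short reads from them can match several places. How the authors treated such reads is not given in the sources used here, so for members whose sequence is not unique both a peak and the lack of one may depend on that choice. Of the members, 65 had windows in which at least 95% of the 36-base sequences were unique in the genome, and 46 of these were bound (70.8%, 58.8 to 80.4). Of the other 21 members 15 were bound (71.4%, 50 to 86.2), a difference of -0.659 points (-19.7 to 22.8). In the peaks of members the median unique share was 99.8%, and it was lowest in Rpl17 (62.3%), Rps16 (68.8%), Rpl31 (71.7%) and Rpl37a (79.8%). In 30 of the 61 peaks every 36-base sequence was unique. The first quartile of the unique share was 94.1% in the members' peaks. It was 100% in the peaks of other bound protein-coding genes and of mitochondrial ribosomal genes, so the members' peaks were less often unique. No member's peak was soft-masked as repeat over 50% or more of its length.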

How the data were processed

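The authors immunoprecipitated chromatin of CD4+ T cells with an anti-GABPα antibody, used Trimmomatic for trimming, Bowtie for alignment to mm10 and MACS2 for peaks against the input, as the study's methods and the submitters' notes give it; no versions are given in the sources used here. The deposited file holds positions and no measured value: a chromosome with start and end positions per peak, the score column being empty. Starts were read as 0-based and are printed as 1-based positions. Genes, transcript starts and snoRNAs came from GENCODE M21, and sequence from RefSeq's GRCm38.p6, the same build. RefSeq's promoter table matched 66 of the 86 genes and gave alternative starts.

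A peak within 1000 bp of any transcript start made a gene bound. Motifs were exact letters on both strands. Uniqueness was the share of 36-base sequences that occur 1 time in the 21 chromosomes on either strand; 21938 genes had a window. Shares have Wilson and differences Newcombe 95% intervals, without p-values. The genes named in full were the 10 widest peaks, peaks covering no start, peaks shared with another gene, the nearest and farthest unbound genes, the stalk, Rpsa, Rpl5, Rpl11 and Rps19; other members were named as bound or unbound or by motif. A few genes are counted in the totals and not reported here by name. Members and lists were chosen with earlier results of these data known. Alternatives covered the window, the starts, peak width, soft-masking, the gene list and the motif. The scripts recovered planted peaks, motifs and repeats on simulated data. The software was pandas 2.3.3, numpy 2.4.6, matplotlib 3.10.9 and numba 0.67.0 under Python 3.11.15.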

Additional observations from a re-analysis of the deposited data

How the results depend on the processing

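Across 12 results and 66 alternatives, 60 were rated the same, 6 moved and 0 reversed. For shares, differences and medians, the same meant a value within the 95% interval of the main setting. Counts of bound genes were rated by a looser rule, a limit on the ratio to the main count, without an interval. The median midpoint position, 10 bp past the gene start, was -18.0 bp from the nearest transcript start and -23.2 bp from the RefSeq start (46 genes). The share of peaks with CCGGAAG, 55.7%, became 80.3% with CGGAAG, 100% with GGAA and 26.2% with CCGGAAGT, and that of bound windows, 44.3%, became 73.8% with CGGAAG, as shorter or longer motifs must. The count of bound members ranged from 51, with peaks near no other protein-coding gene, to 61. It was 52 with peaks at or above the median width, against 14.0% of all protein-coding genes. As shares of the 86 members, the counts of 51 and 52 were 59.3% and 60.5%. Both lay just below the main interval of 60.6 to 79.5%, although these counts were rated the same. The small minus large subunit difference ranged from 2.26 to 16.7 points and its interval spanned zero each time. With a transcript start inside a peak, the interval of members minus initiation factors no longer spanned zero (20.7 points, 3.88 to 36.5, from 14.1). That alternative for this difference, and those with RefSeq starts, the peak nearest a start and peaks near no other gene were chosen after seeing the data. No paired analysis was possible because there is 1 ChIP library. Without a score or read counts, a gene without a listed peak may have binding below the authors' cutoff, and the depth needed to detect it is unknown.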
